A study of Mus musculus with 9 samples.

Results

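The genes described are 10 members of the Myc, Max and Mxd network, a group of related transcription factors: Myc, Mycn and Mycl (the Myc family), Max, the Mxd family genes Mxd1, Mxd3, Mxd4 and Mxi1, and Mlx and Mga. They were chosen by name and matched by symbol to the Ensembl gene IDs of the deposited count table. The table holds 52636 gene IDs, of which 16198 passed the filter on low counts and were tested. All 10 of the 10 members passed that filter.

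The proteins of this network carry a basic helix-loop-helix leucine zipper and bind DNA as pairs at E-boxes, of which CACGTG is the best known. Myc, N-Myc and L-Myc pair with Max and mostly activate genes of growth, ribosome production and metabolism. The Mxd proteins also pair with Max, but bring in corepressors and hold down many of the same genes. Mga is a large Max partner that belongs to a Polycomb complex silencing germline genes, and Mlx pairs with glucose-sensing partners of the Mondo type. In mouse embryonic stem cells Myc and Mycn are known for supporting proliferation and self-renewal and for overlapping in function.

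RNA sequencing had been done on mouse embryonic stem cells of 3 lines, with 3 libraries in each. NanogKO, line 44C6, has the genotype label N{delta} and is called the null line. NanogKO:Esrrb, line 44J, is called the Esrrb line. NanogKO:Esrrb:Nanog, line 44JN, is called the dual line because its name adds both genes. The last 2 carry 1 genotype label, N{delta}:cE:iN, and only their names set them apart. Every line is Nanog-deleted by its name, was cultured in serum with leukaemia inhibitory factor without further treatment, and was sorted as PECAM-positive and PDGFRA-negative cells. Each group is a single line, so an added gene and the history of its line cannot be told apart. The labels give neither the drivers of the added genes nor separate cultures for the replicates, so the tests weigh differences against a spread between libraries that may be technical.

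Library totals ran from 21808120 to 32496267 counts. Levels are in CPM, counts scaled to library size and between libraries. Nanog stood at 14.3 to 16.0 CPM in the null line, 29.7 to 35.1 in the Esrrb line and 222 to 333 in the dual line, and Esrrb at 253 to 303, 692 to 949 and 1056 to 1151 CPM. Nanog was highest in the dual line, whose name adds it, and Esrrb was higher in both lines with added Esrrb than in the null line. Other steps are not given by the names. Nanog was higher in the Esrrb than in the null line, and Esrrb was higher in the dual than in the Esrrb line. Pou5f1, which defines pluripotent cells, was at 569.6 to 784 CPM in all 9 libraries. Pecam1, the gene of the surface protein that sorted cells were to carry, was at 46.4 to 110.5 CPM. Pdgfra, the gene of the protein they were to lack, was highest in the Esrrb line, at 5.84 to 14.1 CPM. The null line had 0.463 to 4.43 CPM of Pdgfra and the dual line 1.77 to 3.86 CPM. Null replicate 2 stood apart in markers of other cells. The summed level of 8 fibroblast markers was 84.4 CPM there and 14.0 and 26.1 CPM in its sister libraries. That of 10 trophoblast markers was 272 CPM against 107 and 155 CPM.

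In the Esrrb line Mycn and Mycl fell, Myc rose, and the Mxd family genes that passed moved in opposite directions, Mxi1 down and Mxd4 up. Against the null line 7 of the 10 network genes passed the test, with 3 higher (Myc, Mlx and Mxd4) and 4 lower (Mycn, Mycl, Mga and Mxi1). Of all tested genes 48.5% passed in this comparison, 24.2% higher and 24.2% lower, so a count of 7 in 10 stands against a background near 5 in 10. Between the dual and Esrrb lines 3 members passed, and these were the 3 Myc family genes, all lower. None were higher, also at an unadjusted p under 0.05 and with DESeq2. Of all genes 13.2% passed there, 5.43% higher and 7.75% lower. Between the dual and null lines 8 members passed, 3 higher (Mlx, Mxd1 and Mxd4) and 5 lower (Mycn, Mycl, Max, Mga and Mxi1), beside 54.4% of all genes, 27.2% higher and 27.2% lower.

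The median log2 change of the 10 genes was -0.03, -0.08 and -0.18 in the 3 comparisons, and that of all tested genes 0.006, -0.005 and 0.002. Any pair of comparisons shares the libraries of a line, so they are not independent. Without null replicate 2 the counts of members called were 7, 3 and 6. The 3 rises in the last comparison were the least stable, with 1 left without this library and none without null replicate 1, Esrrb replicate 1 or dual replicate 3.

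**Figure D1:**
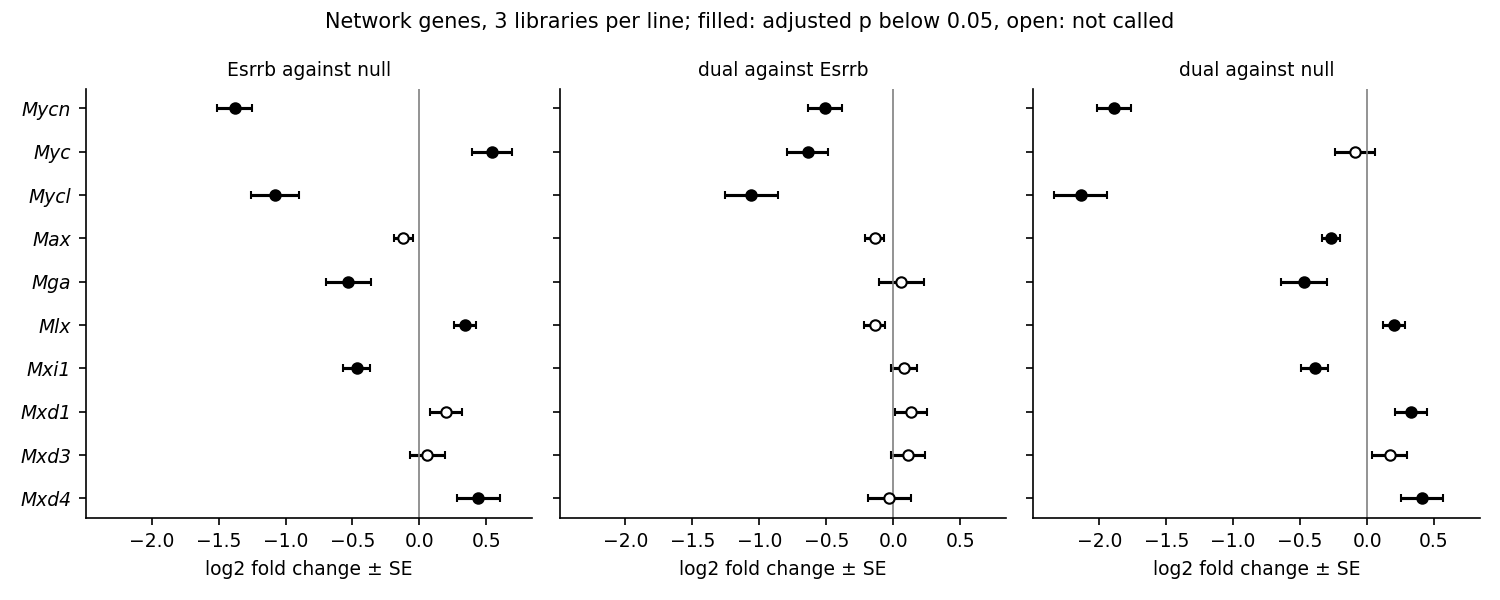
Log2 fold change (x axis, point) with its standard error (bar) of the 10 network genes (y axis) in the 3 comparisons, from edgeR with 3 libraries per line. Filled points passed an adjusted p of 0.05 and open points did not. Mycn and Mycl lie left of 0 in every panel, while Myc is right of 0 at 0.54 in the first panel and left at -0.64 in the second.

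Mycn encodes N-Myc and lies at chr12:12936093-12941914 on the minus strand of mm10. It was the most abundant network gene per length in all 3 lines. Null libraries had 392, 383 and 395.5 CPM of Mycn, Esrrb libraries 155, 127 and 166 CPM, and dual libraries 104.5, 84.9 and 125 CPM. The 3 lines did not overlap, and the step from the null line was the larger one. Mycn fell in the Esrrb line by 1.38 ± 0.13 on the log2 scale (standard error, edgeR quasi-likelihood test, adjusted p = 5.45e-06), a 2.61-fold lower level. From the Esrrb to the dual line it fell by a further 0.51 ± 0.13 (adjusted p = 0.0206, edgeR). This second step was smaller and was lost without Esrrb replicate 1 (adjusted p = 0.0773), Esrrb replicate 3 (0.0748) or dual replicate 2 (0.0682). Against the null line the dual line was 3.72-fold lower (log2 change -1.89 ± 0.13, adjusted p = 4.36e-07, edgeR).

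Myc, at chr15:61985391-61990374 on the plus strand, moved the other way in the Esrrb line. Null libraries had 66.1, 60.4 and 77.0 CPM of Myc, Esrrb libraries 94.2, 105 and 98.0 CPM, and dual libraries 46.6, 66.4 and 77.8 CPM. All Esrrb libraries were above all others, while the null and dual libraries overlapped and the latter were widely spread (SD 16.0 CPM, n = 3, against 8.5 and 5.4). Myc rose 1.46-fold in the Esrrb line (a log2 difference of 0.54 ± 0.15, adjusted p = 0.0101, edgeR). It fell by 0.64 ± 0.15 from the Esrrb to the dual line (adjusted p = 0.0166, edgeR). For the dual line against the null line the log2 change was -0.09 ± 0.15 (adjusted p = 0.624), and its standard error leaves room for a change in either direction.

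Mycl encodes L-Myc, the least studied of the family, and lies at chr4:122995652-123002485 on the plus strand. Its level was 33.0, 43.7 and 37.7 CPM in the null line, 20.4, 12.8 and 21.2 CPM in the Esrrb line and 9.27, 6.8 and 9.87 CPM in the dual line. The lines formed 3 separate steps with no overlap. The first step was a fall by 1.08 ± 0.18 on the log2 scale (adjusted p = 0.000528, edgeR) and the second by 1.06 ± 0.20 (adjusted p = 0.00473). Over both, Mycl was 4.4-fold lower in the dual line (log2 change -2.14 ± 0.20, adjusted p = 3.89e-06), the largest change of any member in any comparison. In the Esrrb line replicate 2 had the lowest Mycl and Mycn and the highest Myc of the 3 libraries. The summed level of 12 primitive endoderm markers was 392, 562 and 473 CPM in replicates 1, 2 and 3. Gata6, Lama1 and Sparc were highest in replicate 2, and the other markers of this list in replicate 3. The part of such cells in the Myc family values was not tested.

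**Figure D2:**
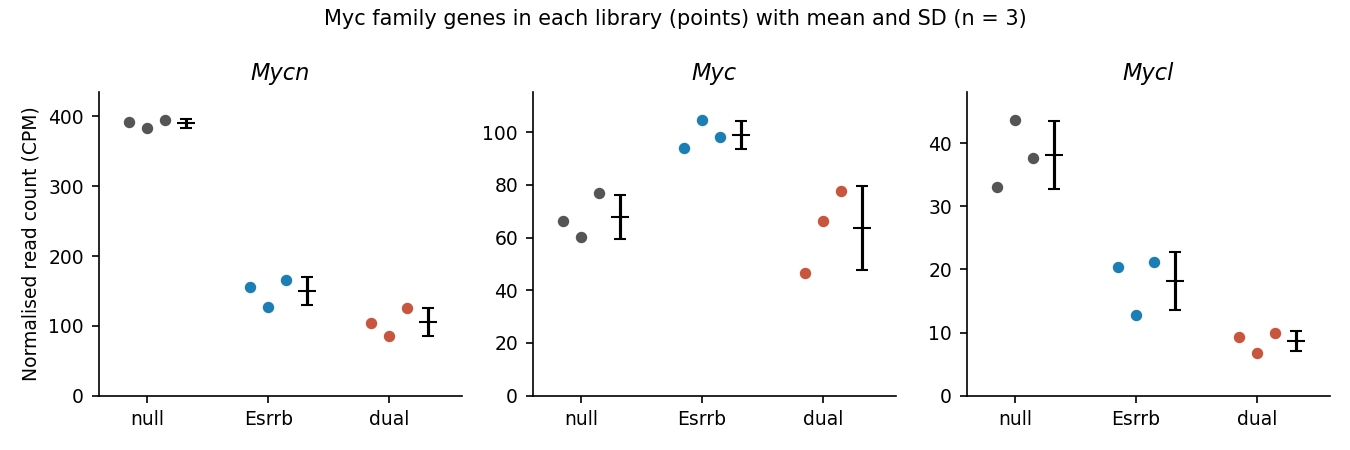
Normalised read count in CPM (y axis, from 0) of Mycn, Myc and Mycl in each library (points) of the 3 lines (x axis), with the mean and SD of 3 libraries as a black bar. Mycn and Mycl step down from line to line, from means of 390.2 and 38.1 CPM to 105 and 8.64 CPM, while Myc is highest in the Esrrb line at 99.0 CPM.

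Dividing by exon length allows the 3 Myc family genes to be added up. Their sum was 152, 149 and 158 CPM per kb in the null libraries, 86.8, 80.4 and 91.8 in the Esrrb libraries and 51.2, 51.9 and 69.1 in the dual libraries. The sum thus went down in 2 steps without overlap, and at the first step the loss of Mycn was larger than the gain of Myc. The share of Myc in this sum was 16.3 ± 1.6% (SD, n = 3) in the null line, 42.4 ± 4.8% in the Esrrb line and 40.7 ± 6.8% in the dual line. Mycn made up 77.5 ± 1.3%, 52.4 ± 3.8% and 55.6 ± 6.2%, and Mycl 6.19 ± 0.95%, 5.16 ± 1.1% and 3.76 ± 0.65%. Mycn kept the larger mean share in every line, and the share of Myc was higher in each library with added Esrrb than in any null library.

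The ratio of Mycn to Myc per length was 4.89, 5.24 and 4.23 in the null libraries. It was 1.36, 1.00 and 1.40 in the Esrrb libraries and 1.85, 1.05 and 1.33 in the dual libraries. Every null library was above every other one, and the 2 other lines overlapped. On the log2 scale the ratio differed by -1.94 between the Esrrb and null lines and by -1.80 between the dual and null lines. Both gave p = 0.1 in a two-sided exact permutation test, the smallest value that 3 against 3 libraries allow. Between the dual and Esrrb lines the difference was 0.15 (exact permutation p = 0.7). Set against Max, the shared partner, the family sum was 5.87 ± 0.12 times the Max level per length in the null line, 3.60 ± 0.15 times in the Esrrb line and 2.64 ± 0.25 times in the dual line.

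**Figure D3:**
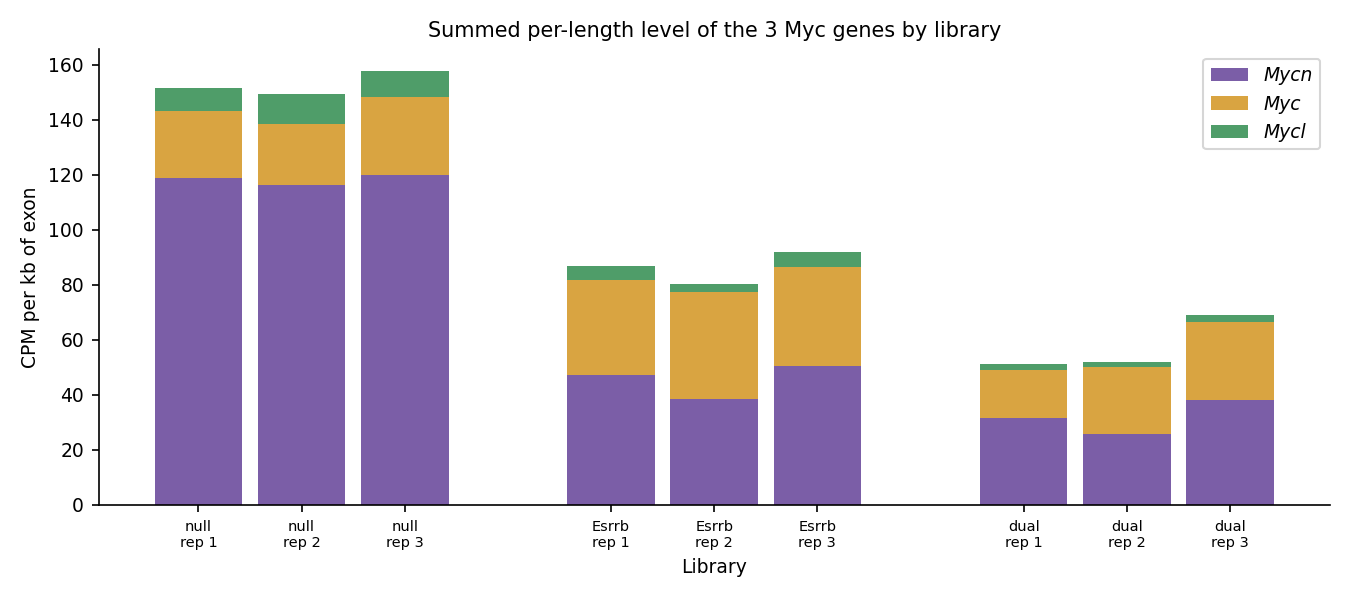
Stacked level per exon length (y axis, CPM per kb) of Mycn, Myc and Mycl in each of the 9 libraries (x axis). The whole bar shrinks from 149 to 158 in the null line to 51.2 to 69.1 in the dual line, and the Mycn part loses more than the Myc part.

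Because Mycn and Mycl fell together, the bases upstream of their RefSeq start sites are shown, leaving out annotated exons. RefSeq entries of build GRCm38.p6 matched 9 of the 10 members, all but Myc, in 11 windows of 250 bases upstream of a start. The Mycn stretch is chr12:12941915-12942086 on the minus strand and the Mycl stretch chr4:122995812-122995930 on the plus strand. They are printed 5′ to 3′, and capitals would mark CACGTG, which neither holds.
Mycn: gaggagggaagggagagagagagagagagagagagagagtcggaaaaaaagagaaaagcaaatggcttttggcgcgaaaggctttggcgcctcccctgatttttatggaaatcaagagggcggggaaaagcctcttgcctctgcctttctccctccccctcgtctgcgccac
Mycl: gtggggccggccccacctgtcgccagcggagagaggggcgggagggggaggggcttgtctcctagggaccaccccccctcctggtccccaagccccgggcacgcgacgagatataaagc
The letters TCAAGGTCA, the core of the site bound by ESRRB, were in 0.387% of all 32851 RefSeq promoter windows, searched on both strands. They were in none of the 11 member windows, which says only that these letters are not there.

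Max is the obligate partner of the Myc proteins and also pairs with the Mxd proteins. It stood at 94.4, 89.5 and 97.5 CPM in the null line, 84.6, 84.5 and 89.5 CPM in the Esrrb line and 71.1, 77.4 and 85.5 CPM in the dual line. Neighbouring lines overlapped, and the outer ones did not. The fall from the null to the dual line passed the test at 0.27 ± 0.07 on the log2 scale, a 1.2-fold lower level (adjusted p = 0.00817, edgeR). The log2 change was -0.12 (adjusted p = 0.182) in the Esrrb against the null line and -0.14 (adjusted p = 0.222) in the dual against the Esrrb line.

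Among the Mxd family genes Mxi1, which encodes a Max partner also called Mxd2, was the only one that fell. It was at 37.1, 34.5 and 39.3 CPM in the null line, 26.8, 25.7 and 27.8 CPM in the Esrrb line and 26.0, 25.8 and 33.0 CPM in the dual line. All null libraries were above all others. The falls were 0.47 ± 0.10 (adjusted p = 0.00237, edgeR) in the Esrrb line and 0.39 ± 0.10 (adjusted p = 0.00621) in the dual line, both against the null line. Between the lines with added Esrrb the log2 change was 0.08 (adjusted p = 0.658).

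Mxd4 was the member with the lowest level per length. It was at 5.47, 7.97 and 8.06 CPM in the null line, 9.19, 9.25 and 11.0 CPM in the Esrrb line and 9.34, 8.53 and 10.9 CPM in the dual line. The null libraries lay below all others, with replicate 1 lowest. Mxd4 rose by 0.44 ± 0.16 on the log2 scale in the Esrrb line (adjusted p = 0.0385, edgeR) and by 0.41 ± 0.16 in the dual line (adjusted p = 0.0465). Without null replicate 1 these adjusted p were 0.162 and 0.183, and the threshold was missed in 7 and 8 of 17 alternative settings in all. Leaving out Esrrb replicate 1 or dual replicate 1 ended both calls, Esrrb replicate 3 the first and dual replicate 3 the second, with adjusted p from 0.0524 to 0.166. An antisense gene, Gm42846, covers 6.06% of the exon bases of Mxd4, and the strand of the counting is not given. Gm42846 itself had 0 counts in every library.

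Mxd1 encodes Mad1, the first Max-binding repressor described, which is associated with differentiation. Its libraries were at 10.5, 10.9 and 12.2 CPM, then 13.5, 10.9 and 14.4 CPM, then 15.4, 12.95 and 13.9 CPM in the order null, Esrrb and dual. The outer lines did not overlap, and the middle one overlapped both. The difference between the outer lines was 0.33 ± 0.12 (adjusted p = 0.042, edgeR), and it was lost without null replicate 1 (0.136) or 2 (0.104), Esrrb replicate 1 (0.0559), or dual replicate 1 (0.138) or 3 (0.0728). Mxd3 did not pass in any comparison and ranged from 7.69 to 11.0 CPM over the 9 libraries (adjusted p 0.749, 0.632 and 0.304).

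Mlx pairs with the Mondo proteins instead of Max. It was at 30.2, 28.7 and 28.8 CPM in the null line, 35.5, 37.6 and 37.6 CPM in the Esrrb line and 30.4, 35.5 and 34.6 CPM in the dual line. The Esrrb libraries were above all null libraries, and replicate 1 of the dual line was close to the null level. Mlx rose 1.26-fold in the Esrrb line (a log2 difference of 0.34 ± 0.08, adjusted p = 0.00337, edgeR). The rise of 0.20 ± 0.08 in the dual line was at the threshold (adjusted p = 0.0453) and was lost in 13 of 17 alternative settings. The opposite-strand gene Psmc3ip shares 385 bases, or 19.3%, of the Mlx exons, so reads there cannot be assigned to Mlx with certainty.

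The gene of 1 Mlx partner moved more than Mlx itself. Mlxipl encodes ChREBP, the glucose-responsive Mondo protein of liver, and was at 12.6, 14.9 and 15.5 CPM in the null line. The values were 4.53, 3.34 and 6.18 CPM in the Esrrb line and 5.91, 4.58 and 3.78 CPM in the dual line, far below every null library. The level was 3.08-fold lower in the Esrrb line (a log2 difference of -1.62 ± 0.21, adjusted p = 7.95e-05, edgeR) and 3.01-fold lower in the dual line (adjusted p = 7.09e-05). Mlxip, which encodes MondoA, fell by 0.19 ± 0.06 in the Esrrb line (adjusted p = 0.0206), a call lost without Esrrb replicate 1 (0.0519) or 3 (0.0787). Of 8 genes known as targets of Mondo and Mlx, 3 fell in the Esrrb line, beside 24.2% of all genes, and none rose by edgeR, at an unadjusted p under 0.05 or by DESeq2. The 3 were Txnip, a brake on glucose uptake (log2 change -0.58 ± 0.09), Khk, the fructose kinase (-0.64 ± 0.11), and Klf10 (-0.33 ± 0.07). Their adjusted p in edgeR's test were 0.000213, 0.000501 and 0.00204.

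The stretches upstream of Mlx and Mxd4 are shown because they were the only members whose windows hold CACGTG, printed here in capitals. Mlx covers chr11:101087040-101087276 on the plus strand, with the motif starting 40 bases before the RefSeq start. Mxd4 covers chr5:34187721-34187960 on the minus strand, with the motif 219 bases before the start.
Mlx: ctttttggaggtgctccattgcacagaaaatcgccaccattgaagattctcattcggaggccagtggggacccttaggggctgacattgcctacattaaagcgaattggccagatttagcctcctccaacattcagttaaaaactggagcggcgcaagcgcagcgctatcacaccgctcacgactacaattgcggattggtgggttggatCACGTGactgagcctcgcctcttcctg
Mxd4: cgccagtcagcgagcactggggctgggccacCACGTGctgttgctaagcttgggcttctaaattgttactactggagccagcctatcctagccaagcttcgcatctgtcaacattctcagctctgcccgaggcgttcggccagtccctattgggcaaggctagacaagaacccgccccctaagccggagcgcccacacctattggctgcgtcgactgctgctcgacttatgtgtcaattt
CACGTG reads the same on both strands and was in 6.02% of all 32851 windows of the same length. Both genes were among the 3 members that rose in the Esrrb line. The third, Myc, had no window to search, and whether motif and rise go together was not tested. A match is a description, not a site.

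Mga has the largest gene product of the network, with a T-box as well as the helix-loop-helix domain. Its libraries were at 595, 397 and 440.1 CPM in the null line, 345, 255 and 394 CPM in the Esrrb line and 391, 302 and 343 CPM in the dual line. Null replicate 1 was far above the rest, and the other 2 null libraries were only just above the highest Esrrb and dual libraries. The falls against the null line were 0.53 ± 0.17 (adjusted p = 0.0219, edgeR) and 0.47 ± 0.17 (adjusted p = 0.0336). Without null replicate 1 both were lost, with adjusted p of 0.0781 and 0.138. Without Esrrb replicate 2 the first was lost (0.0725), and without dual replicate 2 or 3 the second (0.125 and 0.0775).

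The Mga exons span 15340 bases. The 1370 tested genes with exons of at least 10 kb were also high in null replicate 1. Their median log2 difference from the mean of the other libraries of that line was 0.104, beside -0.002 for all genes. The same long genes were low in Esrrb replicate 2, by -0.103. The part of this length-related shift in the Mga values was not tested.

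**Figure D4:**
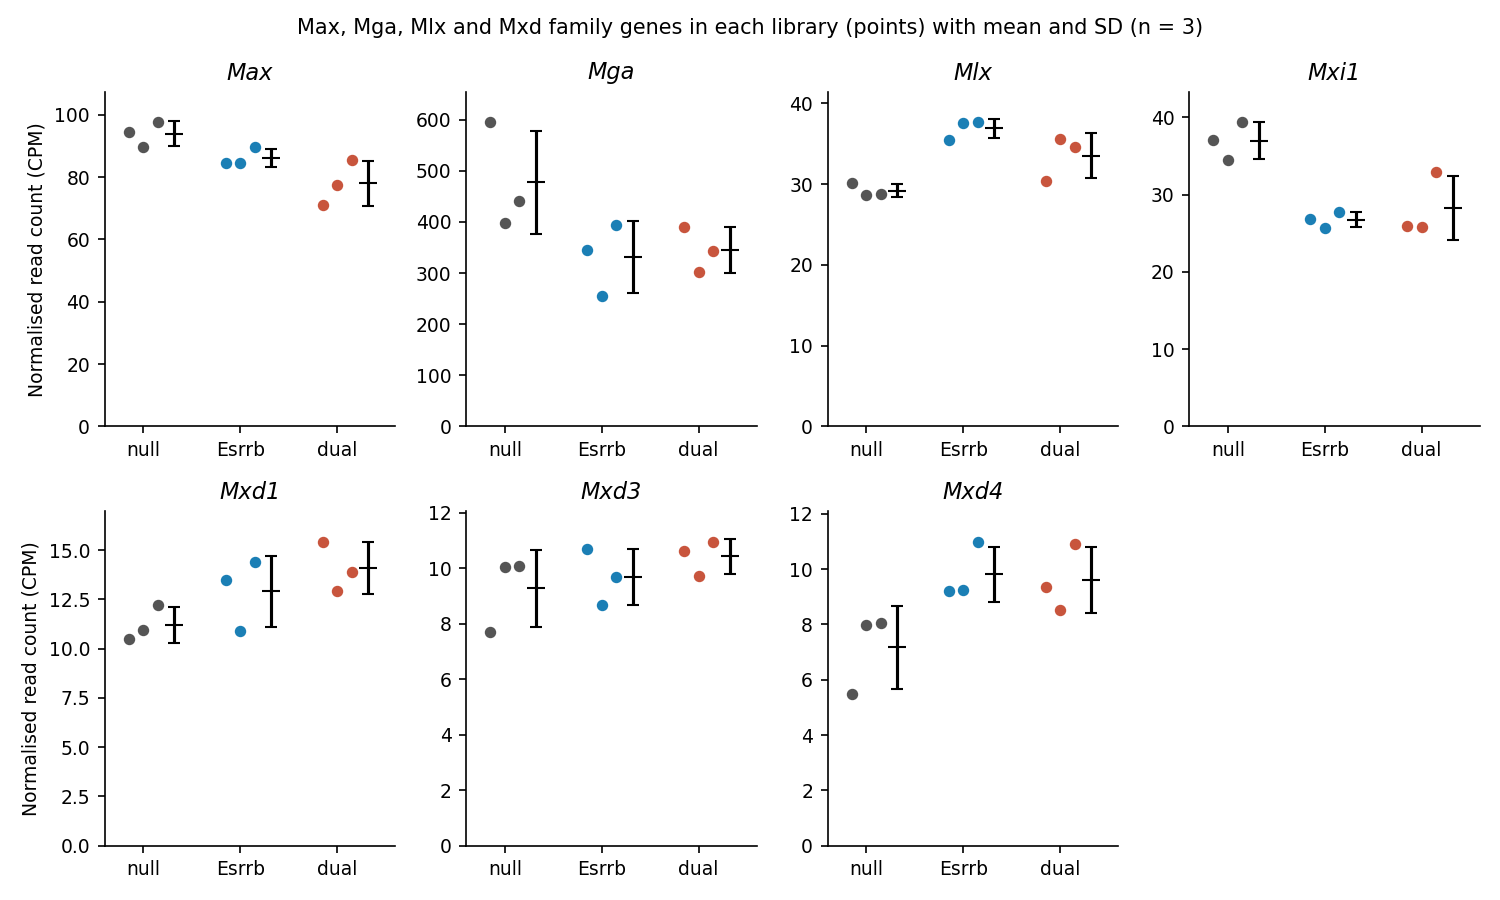
Normalised read count in CPM (y axes, from 0) of Max, Mga, Mlx, Mxi1, Mxd1, Mxd3 and Mxd4 in each library (points) of the 3 lines (x axes), with the mean and SD of 3 libraries as a black bar. Mxi1 drops from a mean of 37.0 CPM in the null line to 26.8 CPM in the Esrrb line, and 1 null library at 595 CPM stands above the other Mga values.

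Mga is a subunit of the Polycomb complex PRC1.6. Of 9 further subunits of this complex 3 were higher and 2 lower in the Esrrb line than in the null line, a share close to that of all genes. Pcgf6, the subunit that defines the complex, fell by 0.47 ± 0.07 (adjusted p = 0.000281, edgeR), from 109, 92.6 and 101 CPM to 73.2, 69.2 and 75.8 CPM. E2f6, its E2F-type DNA-binding subunit, rose by 0.49 ± 0.12 (adjusted p = 0.0056), and Rybp by 0.28 ± 0.06 (adjusted p = 0.00239). L3mbtl2, a chromatin-binding subunit, was at 0.16 ± 0.06 in this comparison (adjusted p = 0.0551) and fell by 0.43 ± 0.06 from the Esrrb to the dual line (adjusted p = 0.00127).

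Of 12 germline genes known to be silenced by this complex in embryonic stem cells, 6 were higher and 2 lower in the Esrrb line than in the null line, beside 24.2% of all genes each way. Their median log2 change was 0.51, and that of all genes 0.006. In the dual line 7 were higher and 4 lower than in the null line, beside 27.2% each way, with a median of 0.79. Dazl, a germ cell RNA-binding protein, rose from 5.38, 5.01 and 5.45 CPM to 11.7, 16.0 and 12.8 CPM (log2 change 1.35 ± 0.14, adjusted p = 1.1e-05, edgeR). Mael, which acts in transposon silencing, rose by 1.20 ± 0.14 (adjusted p = 2.97e-05). Ddx4, the germ cell helicase, rose by 0.45 ± 0.13 in the Esrrb line (adjusted p = 0.012) and by a further 0.69 ± 0.13 in the dual line (adjusted p = 0.00433). The first Ddx4 step was lost without null replicate 1 (0.0515) or Esrrb replicate 2 (0.0505). Hormad1, a meiotic chromosome protein, instead fell by 1.05 ± 0.22 from the Esrrb to the dual line (adjusted p = 0.00855). These genes moved in both directions, with summed values of 146 to 182 CPM over the 12 genes. Stag3 made up a large part of this sum, at 76.2 to 91.2 CPM in the null line and 47.4 to 59.3 CPM in the Esrrb line. The sum therefore does not show the rises of the genes at lower levels. None of the other listed germline genes exceeded 38.8 CPM in any library.

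Windows upstream of these germline genes held CACGTG more often than those of any other set searched, in 12 of 16 windows (75.0%) and 9 of 12 genes. The list was drawn up as targets of a complex that binds such sites, so this share is not an independent result. A stretch around the motif is shown for 3 genes that rose in the Esrrb line and 1 that fell, as examples picked after their values were seen. They are Mael at chr1:166238942-166238987 (minus strand), Slc25a31 at chr3:40708758-40708803 (plus), Stk31 at chr6:49395464-49395509 (plus) and Sycp3 at chr10:88459503-88459548 (plus), with CACGTG in capitals.
Mael: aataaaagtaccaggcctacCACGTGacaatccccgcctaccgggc
Slc25a31: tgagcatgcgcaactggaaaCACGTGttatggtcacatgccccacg
Stk31: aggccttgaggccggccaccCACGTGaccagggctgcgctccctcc
Sycp3: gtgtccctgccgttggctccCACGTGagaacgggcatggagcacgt
Of the 9 germline genes with the motif 4 were higher and 2 lower in the Esrrb line than in the null line, and of the 3 without it 2 were higher and none lower. Log2 changes were 1.20 for Mael, 1.26 for Slc25a31, 1.22 for Stk31 and -0.62 for Sycp3.

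The order of levels per exon length differed between the lines. In the null line Mycn led at 118 ± 1.9 CPM per kb (SD, n = 3), followed by Mga at 31.1 ± 6.8, Max at 26.1 ± 1.1, Myc at 25.0 ± 3.1, Mlx at 14.6 ± 0.42, Mycl at 9.45 ± 1.3, Mxi1 at 5.42 ± 0.36, Mxd3 at 3.91 ± 0.58, Mxd1 at 1.59 ± 0.13 and Mxd4 at 0.845 ± 0.17. Mga, Max and Myc did not differ beyond their spread. In the Esrrb line Myc took the second place at 36.4 ± 2.0, between Mycn at 45.4 ± 6.1 and Max at 24.0 ± 0.80. Mycl, Mxd3 and Mxi1 lay together there at 4.49 ± 1.1, 4.09 ± 0.42 and 3.92 ± 0.15. In the dual line Mycn was at 31.8, and Myc at 23.4, Mga at 22.5 and Max at 21.7 could not be separated. Mycl had dropped to 2.14, below Mxd3 at 4.41 and Mxi1 at 4.14. By their means Mxd1 and Mxd4 were the lowest 2 in all lines, but in the dual line Mycl, at 1.68 to 2.44, overlapped Mxd1, at 1.83 to 2.18.

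Other genes whose proteins bind the network were mixed. For these and the target lists, the share of all tested genes was 24.2% each way in the Esrrb against the null line, 5.43% higher and 7.75% lower in the dual against the Esrrb line, and 27.2% each way in the dual against the null line. Mnt, a further Max-binding repressor, was at 85.9 to 113 CPM and did not pass in any comparison. Mycbp, a small Myc-binding protein, rose 1.53-fold in the Esrrb line (15.8 to 16.6 CPM against 23.1 to 26.2, adjusted p = 6.53e-05, edgeR). Zbtb17, which encodes Miz1, the zinc finger protein through which Myc represses genes, rose 1.36-fold (31.6 to 33.6 against 40.8 to 47.5 CPM, adjusted p = 0.000419). Of the 6 partners 2 rose and 2 fell in the Esrrb line, and between the dual and Esrrb lines 0 passed in edgeR and in DESeq2, with 1 (Mlxip, log2 change 0.15) at an unadjusted p under 0.05.

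Among 10 Myc coactivators 1 was higher and 1 lower in the Esrrb line. Wdr5, which holds Myc on chromatin, was at 204 to 212 CPM in the null line and 301 to 344 CPM in the Esrrb line (a log2 difference of 0.64 ± 0.07, adjusted p = 2.37e-05, edgeR). Kat5, the Tip60 acetyltransferase, fell by 0.25 ± 0.07 (adjusted p = 0.00856). In the dual line 4 were higher and 2 lower than in the null line, near the background of 27.2% either way.

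Of 10 genes that set the stability of the Myc proteins 2 rose and 2 fell in the Esrrb line. Fbxo32, a ubiquitin ligase subunit, fell 4.02-fold (8.76, 8.71 and 7.26 CPM against 2.07, 0.881 and 3.27 CPM, adjusted p = 0.000291, edgeR). Fbxw7, the ligase subunit that marks phosphorylated Myc and N-Myc for degradation, rose by 0.26 ± 0.07 (adjusted p = 0.00809). Usp28, which opposes Fbxw7, was at 226, 195 and 209 CPM in the dual line beside 392, 317 and 427 CPM in the Esrrb line. That fall was 0.85 ± 0.10 on the log2 scale (adjusted p = 0.000385). Gsk3b, a kinase that phosphorylates Myc for recognition by Fbxw7, fell by 0.21 ± 0.06 in the Esrrb line (adjusted p = 0.00908) and rose by 0.29 ± 0.06 from there to the dual line (adjusted p = 0.00712).

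Of 10 genes of the Sin3 and NCoR corepressors, through which Mxd proteins act, 5 were higher and 2 lower in the Esrrb line, beside 24.2% of all genes each way. The count of 5 was 3 without null replicate 2 or 3 or Esrrb replicate 1. Hdac2, a histone deacetylase, rose from 173 to 188 CPM in the null libraries to 283 to 333 CPM in the Esrrb libraries (log2 change 0.78 ± 0.07, adjusted p = 4.25e-06, edgeR). In the dual against the Esrrb line 1 passed, Sap30, which was lower by -0.30 ± 0.06 (adjusted p = 0.0064).

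Ribosome biogenesis genes, the group most tied to Myc, mostly did not pass. Of 20 such genes 2 were higher and none lower in the Esrrb line than in the null line, in edgeR as in DESeq2, beside 48.5% of all genes that passed. At an unadjusted p under 0.05 the counts were 6 and 0. The median log2 change was 0.10, and the summed level of the 20 genes was 10490 to 11050 CPM in the null line and 11020 to 11620 CPM in the Esrrb line, which overlapped. The genes were Dkc1, which modifies ribosomal RNA (0.31 ± 0.06, adjusted p = 0.00175, edgeR), and Bop1 (0.26 ± 0.09, adjusted p = 0.0249), which was lost without any null library or without Esrrb replicate 2. Between the dual and Esrrb lines 3 were lower, Npm1, Gnl3 and Pes1. None of these 3 calls held without Esrrb replicate 1, Esrrb replicate 3 or dual replicate 2. Against the null line the dual line had 2 higher and 3 lower, while Mycn and Mycl were several-fold lower.

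Of 16 metabolic and chaperone genes known as Myc targets 7 were higher and 2 lower in the Esrrb line (median log2 change 0.17), and 7 higher and 4 lower in the dual line, both against the null line. Of all tested genes 24.2% and 27.2% passed each way in these comparisons. The 7 higher genes were above that share in both, and the 2 lower genes in the Esrrb line were below it. The list was not tested as a set. Prps2, which makes the precursor of nucleotides, rose 2.34-fold in the Esrrb line from 30.6 to 36.0 CPM to 73.5 to 79.5 CPM (adjusted p = 1.52e-06, edgeR). Hk2, a hexokinase, rose 1.63-fold (adjusted p = 3.2e-05). Between the dual and Esrrb lines 2 were lower, Prps2 (-0.40 ± 0.09, adjusted p = 0.0138) and the lactate dehydrogenase gene Ldha (-0.75 ± 0.11, adjusted p = 0.00113). The Prps2 fall was lost without dual replicate 3 (0.0567). Ldha was at 1136, 1078 and 1081 CPM, then 1339, 1299 and 1195 CPM, then 609.6, 778 and 888 CPM in the 3 lines. Like Myc it was highest in the Esrrb line. In the dual line Ldha lay below every null library, while Myc there overlapped the null line. A link between Ldha and Myc was not tested.

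Of 8 translation factor genes 1 rose in the Esrrb line, Pabpc1, the poly(A)-binding protein (0.40 ± 0.06, adjusted p = 0.000201, edgeR), and 1 fell from there to the dual line, Eif4ebp1, an inhibitor of cap-dependent translation (-0.32 ± 0.06, adjusted p = 0.00614). Of 10 cell cycle genes induced by Myc 4 were higher and 1 lower in the Esrrb line (3 and 2 in DESeq2). Of all genes 24.2% passed each way. E2f2, an S-phase activator, rose from 10.2, 10.3 and 12.1 CPM to 68.0, 84.9 and 51.4 CPM, 6.26-fold (adjusted p = 6.28e-07). Ccnd1, cyclin D1, fell from 38.7, 32.5 and 30.9 CPM to 12.0, 11.0 and 12.4 CPM (log2 change -1.53 ± 0.31, adjusted p = 0.00179). In the dual line Ccnd1 was at 15.9, 19.9 and 47.0 CPM, with replicate 3 far above the rest. The count of 4 higher genes was 2 without any single null library.

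Of 10 genes known to be repressed by Myc 3 were higher and 3 lower in the Esrrb line, near the 24.2% of all genes each way. Gadd45b, a stress-response gene, fell by 1.35 ± 0.22 (adjusted p = 0.000369, edgeR) and Gadd45a by 0.34 ± 0.08 (adjusted p = 0.00354), with a further fall of Gadd45a by 0.38 ± 0.08 in the dual line (adjusted p = 0.00889). Gata6 rose by 2.76 ± 0.50 in the Esrrb line (adjusted p = 0.000761), and it is also a primitive endoderm gene.

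**Figure D5:**
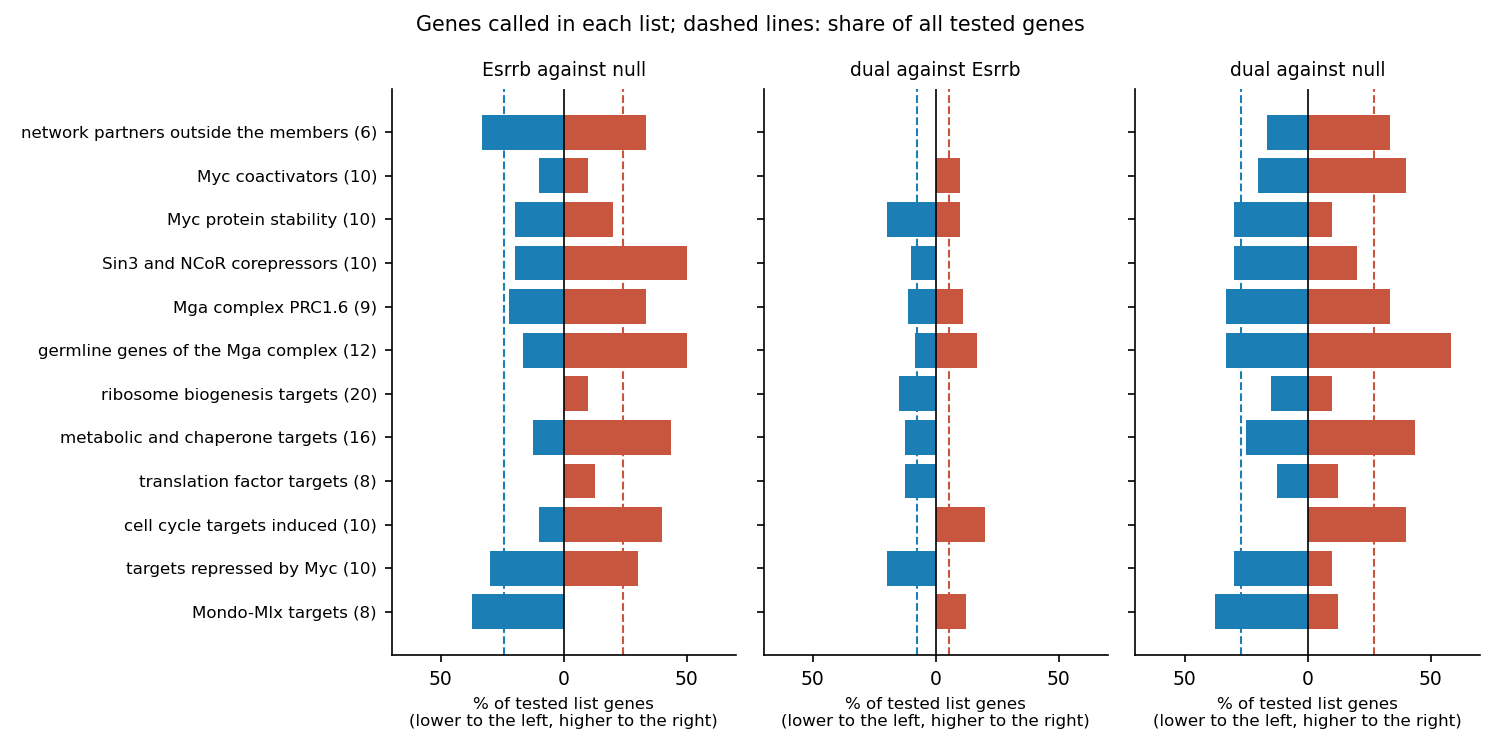
Share of the tested genes of each list (y axis, number of genes in brackets) that were lower (bars to the left) or higher (bars to the right) with an adjusted p below 0.05, in percent (x axis), for the 3 comparisons. Dashed lines give the share of all tested genes. Ribosome biogenesis bars stay inside the dashed lines in the left and right panels, while the germline bars to the right, 6 and 7 of 12 genes, go beyond them, as does the one to the left in the right panel, 4 of 12.

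The genes whose pattern over the 9 libraries was most like that of a Myc family gene were sought among 10131 genes with a mean of at least 5 CPM, by the root mean square difference of centred log2 CPM. For Mycn they included Pak1 and Selenop (both 0.123). Pak1, a kinase, went from 97.6 ± 3.3 CPM (SD, n = 3) in the null line to 39.7 ± 4.1 and 29.5 ± 2.0 CPM. For Myc they included Rarg (0.098) and Robo4 (0.132). Rarg, a retinoic acid receptor, was at 200.5 ± 9.8, 301.5 ± 22 and 200.6 ± 32 CPM, highest in the Esrrb line like Myc. For Mycl they were Arhgef28 (0.173), Magel2 (0.183) and Plch1 (0.195). The points share libraries and lines, so this is a description of likeness and no test.

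Markers of other cells moved with the lines. In the Esrrb line 7 of 9 tested trophoblast markers and 4 of 5 tested fibroblast markers were lower than in the null line, and 1 fibroblast and 5 of 8 pluripotency markers were higher. Of 11 tested primitive endoderm markers 5 were higher and 3 lower. Of all tested genes 24.2% passed each way in this comparison, so the 3 lower primitive endoderm markers were near the background. The summed fibroblast level was 14.0 to 84.4 CPM in the null line, 7.53 to 13.9 in the Esrrb line and 7.83 to 14.4 in the dual line. These sums rest on different genes. Thy1, the fibroblast marker that was higher, made up most of them in the Esrrb line (6.34 to 12.5 CPM) and the dual line (6.06 to 12.0 CPM). In the null line Thy1 was at 2.04 to 2.41 CPM and Acta2 at 7.69 to 54.3 CPM. Acta2 was at 0.105 CPM or less in every other library. The sums of trophoblast markers were 107 to 272, 37.8 to 64.7 and 50.6 to 58.5 CPM. Primitive endoderm markers summed to 504 to 771, 392 to 562 and 601 to 757 CPM, with Lrp2 and Lamb1, both lower in the Esrrb line, making up most of the null sum. At 0 counts in all 3 libraries were Elf5 in the Esrrb line, Col3a1 in the dual line and Postn in both. Mycn was at 383 CPM in null replicate 2, where the fibroblast and trophoblast sums were highest, and at 392 and 395.5 CPM in the other 2. The part of other cells in the results was not tested, and in bulk RNA fewer cells of a type cannot be told apart from less RNA per cell.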

How the data were processed

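RNA of mouse embryonic stem cells in 9 sorted samples was depleted of ribosomal RNA and sequenced, per the labels' protocols. The submitters' processing notes name bcl2fastq 2.19.1, STAR 2.5.3a and the build mm10, with no roles. The authors deposited whole-number counts per Ensembl gene, unscaled, per the file headers and the values. How reads were assigned to genes, and on which strand, is not given in the sources used, and reads of overlapping or antisense genes cannot be told apart. Of 15 library columns 9 matched a sample by name. The other 6 were not used.

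Symbols and positions came from GENCODE M21 (mm10, also called GRCm38) and matched 52403 of 52636 gene IDs. In R 4.3.3 with edgeR 4.0.16, the default low-count filter was applied, library sizes were scaled by the trimmed mean of M values, and a quasi-likelihood model with line as its only term was fitted to the 9 libraries. Adjusted p-values are from that model, by the Benjamini-Hochberg method over the 16198 tested genes, with a threshold of 0.05. "Passed", "rose", "fell", "higher" and "lower" refer to it. Standard errors were worked back from the F statistic. CPM values have no pseudocount, and log2 CPM for pattern likeness used a prior count of 2. Levels per length divide CPM by the summed exon length of a gene.

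The members and the 20 gene lists were chosen with earlier results of these data known. Named were all members, partners and line genes, from each other list the 2 genes with the smallest adjusted p in each comparison, and the 3 genes most like each Myc family gene. Some genes that this rule picks are not reported here. Further genes (Slc25a31, Stk31, Sycp3, Stag3, Pou5f1, Pdgfra, Sparc and the markers at 0) were named after their values were seen. Alternatives were each library left out in turn, median-of-ratios factors, library totals alone, DESeq2 1.42.0, no low-count filter, at least 5 CPM in 3 libraries, a fit to the compared pair of lines alone, a replicate block, and a test asking for more than a fold change of 1.5. The procedure was also run on simulated data in which far fewer genes were changed than passed here. No result above rests on that run.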

Additional observations from a re-analysis of the deposited data

How the results depend on the processing

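For 82 named genes, 3 comparisons and 17 alternatives, 3882 of 4154 values stayed on their side of the threshold, 225 lost the call, 47 gained it and none of those called reversed. Of the 3882, 79 that were not called in either fit changed sign. A test against a fold change of 1.5 left 2488, 233 and 3063 genes in the order Esrrb against null, dual against Esrrb and dual against null, and 2, 0 and 2 members. Fewer genes then pass by construction. With single libraries left out the ranges were 6654 to 8263, 1105 to 2374 and 7729 to 9123 genes and 5 to 7, 2 to 3 and 4 to 8 members. The second count was 1105 without Esrrb replicate 1, 1378 without Esrrb replicate 3 and 1215 without dual replicate 2. The third count of members was 4 without null replicate 1 or dual replicate 3, and 5 without Esrrb replicate 1. The log2 ratio of Mycn to Myc ranged from -2.03 to -1.79, from -0.067 to 0.339 and from -2.01 to -1.60 (-1.605). It changed sign in the second comparison without dual replicate 1 (-0.067) or Esrrb replicate 2 (-0.005), and the cause was not tested.

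Library totals alone changed the split of the second comparison from 880 higher and 1255 lower genes to 1386 and 941, with a median of all genes of 0.059. The 3 Myc family genes stayed lower there. The labels do not say that replicate numbers pair libraries, and they were not treated as pairs because 3 of 9 same-numbered pairs, not all, had deviations correlated above 0.1 (range -0.025 to 0.278). In 9 of 18 library and line combinations the own number was closest. With the replicate number as a block 7997, 2381 and 8946 genes and 7, 3 and 7 members passed. The ratio differences with this block were -1.94, 0.148 and -1.80 (exact permutation p = 0.25, 0.75 and 0.25). Here the signs of the differences between same-numbered libraries were flipped in 8 arrangements, and 0.25 is the smallest value these allow.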
